A study of Homo sapiens with 15 samples.

Results

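Argonaute, TNRC6 and microRNA processing genes were followed as a set of 10 named genes in human HEK293 RNA-seq libraries. They are AGO1, AGO2, AGO3, AGO4, TNRC6A, TNRC6B, TNRC6C, DROSHA, DGCR8 and DICER1, taken by name from the pathway, with earlier results of these data known. Each has 1 row among the 55773 rows of the deposited table of normalized counts, and all 10 passed the filter on low values in both experiments. The study varied the level of ZC3H7A and ZC3H7B, a pair of CCCH zinc-finger proteins that bind RNA, in HEK293 cells, an established line from human embryonic kidney. The series title names codon-dependent effects of these proteins on the translation and stability of mRNA.

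There were 5 groups of 3 libraries. Flag/HA-ZC3H7A and Flag/HA-ZC3H7B cells are Flp-In T-REx 293 cells with a doxycycline-inducible tagged transgene, and Flag/HA-control cells, which also received doxycycline, carry the tag control. Induction lasted 24 h at 1 µg/mL, and poly(A) RNA was taken from hypotonic lysates made for polysome isolation. ZC3H7A/B-DD cells carry a ZC3H7A knockout together with an shRNA against ZC3H7B, and Parental cells are wild type with a control shRNA. Both were selected with puromycin at 5 µg/mL and released from it 2 passages before collection. The overexpression replicates are described as independent. Nothing in the labels says whether the DD and Parental replicates came from separate cultures, so p-values for that pair cover the spread between these samples only, which may be technical. The labels also do not say whether a line is 1 clone or a pool. The 2 experiments used different library protocols, and values were compared only within an experiment.

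Library totals ran between 45.5 and 57.6 M reads in the 9 overexpression libraries and between 12.2 and 15.5 M reads in the 6 DD and Parental libraries. Each member had at least 519 and at most 10841 reads in a library. ZC3H7A reads were 3.42-fold the control in Flag/HA-ZC3H7A cells, and ZC3H7B reads were 4.57-fold the control in Flag/HA-ZC3H7B cells. In DD cells ZC3H7B averaged 1084 ± 84.1 normalized counts, against 6463 ± 505 in Parental cells (SD, n = 3 each). ZC3H7A averaged 1658 ± 106 in DD cells, against 1599 ± 78.7 in Parental cells, so reads summed over the gene did not show its knockout, which a small edit need not change. The 6 HEK293 markers VIM, NEFL, NEFM, INA, LIN28B and UCHL1 summed to 38300 to 41100 normalized counts per library with ZC3H7A, 41900 to 44000 with ZC3H7B and 28400 to 29700 in control cells, and to 48200 to 51800 in DD and 46200 to 50100 in Parental cells. Single markers did not all follow the sum. At a limma adjusted p under 0.05, 3 rose and 2 fell with ZC3H7A, where 34.7% of all tested genes rose and 41.2% fell. With ZC3H7B 4 rose and 1 fell, where 32% and 37.6% did. In DD cells 2 of 5 tested rose and 3 fell, where 14.7% and 14.8% did. LIN28B was among those that fell each time. In DD and in Parental cells 5 of the 6 markers reached a mean of 10. Of the 3 leukocyte, 2 matched endothelial, 3 fibroblast and 3 keratin markers, each list summed to at most 64.1, and PTPRC and CD3E were at 0 in DD and Parental libraries. The fibroblast marker COL3A1 was low but higher with ZC3H7A (26.9) and ZC3H7B (30.8) than in control cells (5.97). The part of these marker differences in the members' values was not tested, and in bulk RNA fewer cells of a type and less RNA per cell cannot be told apart. In Flag/HA-ZC3H7A cells replicate 3 stood apart from the others, and in Parental cells replicates 1 and 3 differed most. Results that rest on one of these libraries are given without it.

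A microRNA is made from a hairpin in a longer transcript. DROSHA and its double-stranded RNA-binding partner DGCR8 cut the hairpin out in the nucleus, DICER1 trims it in the cytoplasm, and an Argonaute protein keeps one strand as a guide. A TNRC6 protein then binds the Argonaute and recruits deadenylases, so that target mRNAs lose their poly(A) tails and are repressed. Argonaute and TNRC6 are both families of paralogs with overlapping roles, and in human cells AGO2 is the Argonaute best known for cutting a fully paired target itself.

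With ZC3H7A, AGO2 rose to 2.19 times its control level while AGO3 and AGO4 fell, and AGO1 did not pass the test. All 3 TNRC6 genes fell, as did DGCR8 and DICER1, and DROSHA did not pass. With ZC3H7B, AGO2 rose 1.4-fold, AGO3 and AGO4 fell again, AGO1 fell slightly, TNRC6A and TNRC6B fell, and DROSHA rose. In DD cells AGO1 fell and TNRC6A and TNRC6C rose, and AGO2 differed by less than the spread between libraries. So 8 of 10 members passed with ZC3H7A (1 higher, 7 lower), where 75.9% of 17673 tested genes did (34.7% higher, 41.2% lower). The count was also 8 of 10 with ZC3H7B (2 higher, 6 lower), where 69.6% of tested genes did (32% higher, 37.6% lower). In DD cells 3 of 10 passed (2 higher, 1 lower), where 29.5% of 18494 tested genes did (14.7% higher, 14.8% lower). The number of members called was therefore near the share called among all genes. The libraries of 8 members did not overlap with ZC3H7A and of 8 with ZC3H7B, against 77.9% and 77.1% of all tested genes. Between ZC3H7A and ZC3H7B cells 5 members were called (2 higher, 3 lower with ZC3H7A) and 5 did not overlap, where 44.3% of tested genes were called (23.9% higher, 20.4% lower) and 49.2% did not overlap. The members' median log2 fold change was -0.22 with ZC3H7A, -0.15 with ZC3H7B and 0.03 in DD, beside -0.07, -0.06 and 0.01 over all tested genes. Both overexpression groups are set against the same 3 control libraries, so their folds are not independent of each other. Called means a limma Benjamini-Hochberg adjusted p under 0.05, two-sided, on log2 of the normalized count plus 1.

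**Figure D1:**
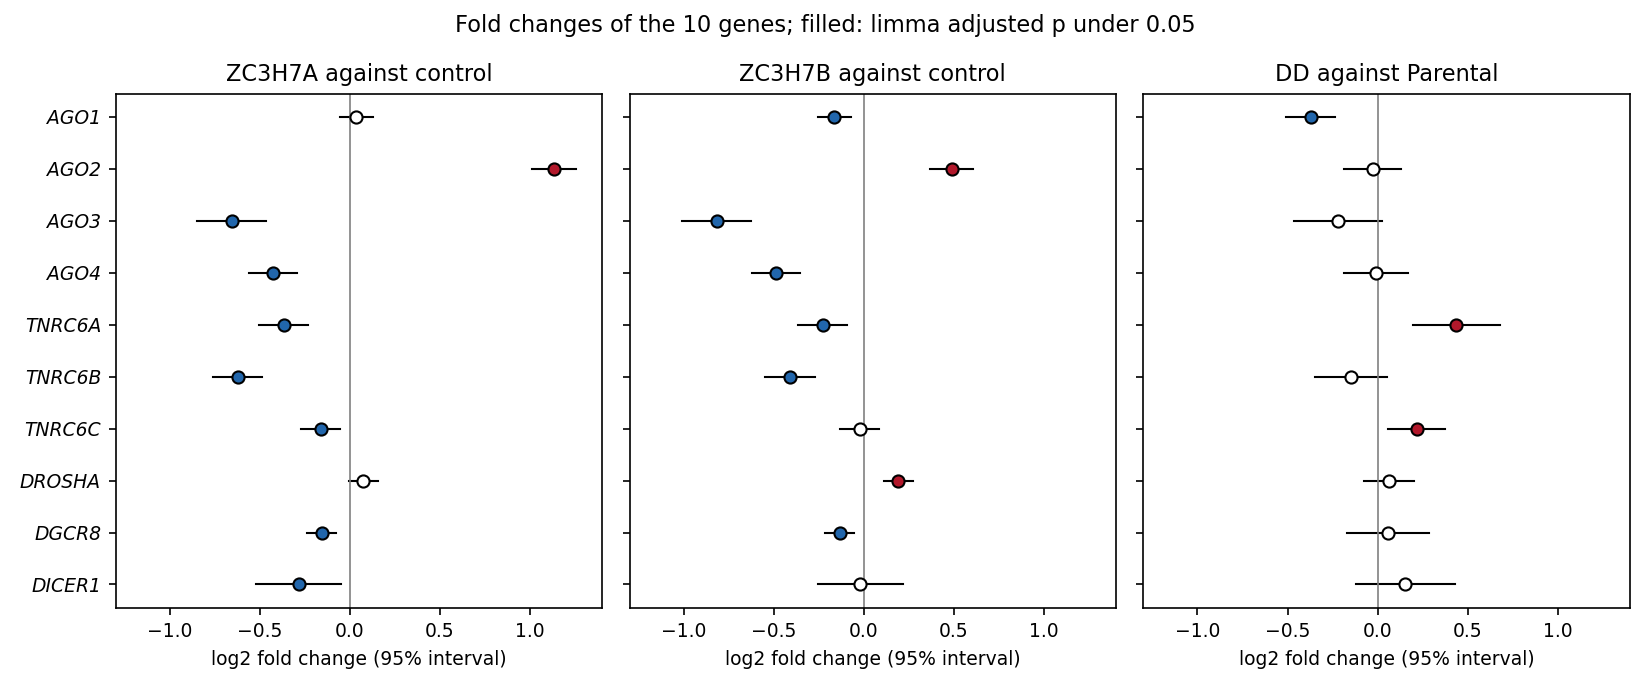
Log2 fold change of each of the 10 genes (horizontal axis) with its 95% interval from limma, for Flag/HA-ZC3H7A against control, Flag/HA-ZC3H7B against control and DD against Parental. Filled points passed an adjusted p under 0.05 (red higher, blue lower). AGO2 lies at 1.13 and 0.49 in the overexpression panels and at -0.03 in DD, while AGO3 lies at -0.66, -0.82 and -0.22.

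Because the study concerns codons, the coding sequences of the paralogs are shown where they encode the same amino acids. AGO1, AGO3 and AGO4 lie next to each other on chromosome 1 (plus strand). The window below is the stretch of 30 codons, identical in the encoded residues of all 3, in which their use of A- or T-ending codons differs most among 47 such stretches. Sequences are from GENCODE 29 on GRCh38, 5′ to 3′, and capitals mark an A or T at the third base of a codon.
AGO1, codons 521 to 550: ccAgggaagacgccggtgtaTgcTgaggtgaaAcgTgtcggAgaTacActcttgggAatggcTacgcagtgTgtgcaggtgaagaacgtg
AGO3, codons 524 to 553: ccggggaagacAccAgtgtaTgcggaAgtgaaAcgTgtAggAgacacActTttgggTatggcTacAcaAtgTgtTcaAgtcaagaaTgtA
AGO4, codons 515 to 544: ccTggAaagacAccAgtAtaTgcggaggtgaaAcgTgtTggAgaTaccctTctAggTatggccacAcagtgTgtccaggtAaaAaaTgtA
In this window 11 of 30 codons end in A or T in AGO1, 19 in AGO3 and 20 in AGO4. AGO1 and AGO3 share 14 codons and differ by synonymous codons at the other 16. The window was picked for the difference, and the whole alignment gives the fairer picture. At the 615 positions where all 4 Argonautes carry the same residue, 25.4% of AGO2 codons end in A or T, 34.3% of AGO1 codons, 55.4% of AGO4 codons and 59.3% of AGO3 codons. AGO2 lies on another chromosome and its sequence is not printed.

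The TNRC6 paralogs lie on chromosomes 16, 22 and 17 and share fewer residues. The single shared stretch of 16 codons is shown for comparison, all on the plus strand and with the same use of capitals.
TNRC6A, codons 1836 to 1851: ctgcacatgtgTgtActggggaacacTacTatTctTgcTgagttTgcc
TNRC6B, codons 1703 to 1718: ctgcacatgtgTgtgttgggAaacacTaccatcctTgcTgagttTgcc
TNRC6C, codons 1823 to 1838: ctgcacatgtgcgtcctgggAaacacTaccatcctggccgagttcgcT
Here 8 codons end in A or T in TNRC6A, 6 in TNRC6B and 3 in TNRC6C. Over the 534 positions with the same residue in all 3, the share is 53.4% in TNRC6A, 47.6% in TNRC6B and 41.9% in TNRC6C.

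AGO2 had 2191, 2157 and 2144 normalized counts in Flag/HA-ZC3H7A cells, 1378, 1352 and 1426 in Flag/HA-ZC3H7B cells and 1076, 961.1 and 928.7 in control cells. The 3 groups did not overlap, and the order ZC3H7A over ZC3H7B over control held in every library. The log2 fold change was 1.13 with ZC3H7A (SE 0.0551, limma adjusted p = 6.9e-09), a value that 2.83% of tested genes exceeded, and 0.49 with ZC3H7B (adjusted p = 7.82e-06), which 12.5% exceeded. ZC3H7A and ZC3H7B cells also differed from each other by 0.64 (limma adjusted p = 2.16e-06). In the depletion experiment AGO2 had 3168, 3480 and 3417 normalized counts in DD cells and 3677, 3257 and 3329 in Parental cells. These groups overlapped, and the difference of -0.03 had a 95% interval between -0.18 and 0.13 on the log2 scale.

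AGO3, an Argonaute encoded beside AGO1 and AGO4, moved the other way. It had 1190, 1208 and 1466 normalized counts in Flag/HA-ZC3H7A cells, 1056, 1095 and 1306 in Flag/HA-ZC3H7B cells and 2081, 1978 and 2005 in control cells. Every overexpression library lay below every control, and replicate 3 was the highest in both overexpression groups. The log2 fold change was -0.66 with ZC3H7A (SE 0.0882, limma adjusted p = 2.51e-05) and -0.82 with ZC3H7B (limma adjusted p = 5.61e-06), and the 2 overexpression groups overlapped. In DD cells AGO3 had 1651, 1741 and 1936 normalized counts, against 2509, 1906 and 1839 in Parental cells. The groups overlapped and the log2 fold change of -0.22 did not pass (limma adjusted p = 0.164), and it rested on single Parental libraries. It was -0.08 without Parental replicate 1 (limma adjusted p = 0.547) and -0.30 without Parental replicate 3 (limma adjusted p = 0.0234).

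AGO4 followed AGO3 in the overexpression groups. It had 998, 1007 and 1148 normalized counts in Flag/HA-ZC3H7A cells, 975.6, 997.8 and 1041 in Flag/HA-ZC3H7B cells and 1465, 1424 and 1341 in control cells. Neither overexpression group overlapped the controls, and the log2 fold changes were -0.43 with ZC3H7A (limma adjusted p = 4.32e-05) and -0.49 with ZC3H7B (limma adjusted p = 1.84e-05). In DD cells AGO4 had 1303, 1358 and 1319 normalized counts, within the range of 1257 to 1474 in Parental cells, and the log2 difference was -0.01 with a 95% interval between -0.19 and 0.17.

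AGO1 was the Argonaute with the highest level per kilobase of exon in every group. It had 4744, 5087 and 5021 normalized counts in Flag/HA-ZC3H7A cells, 4260, 4266 and 4422 in Flag/HA-ZC3H7B cells and 5002, 4723 and 4772 in control cells. The ZC3H7A libraries overlapped the controls, and their log2 fold change of 0.04 had an interval between -0.06 and 0.13, but with size factors re-estimated within the experiment it was 0.13 and passed (adjusted p = 0.0179). The ZC3H7B libraries all lay below the controls, at -0.16 (limma adjusted p = 0.00401), but with the re-estimated size factors the value was -0.08 and did not pass (adjusted p = 0.123). The clearest change of AGO1 came with depletion. It had 5535, 5781 and 5649 normalized counts in DD cells and 7307, 6991 and 7640 in Parental cells, with no overlap and a log2 fold change of -0.37 (SE 0.0625, limma adjusted p = 0.000995). The groups do not overlap in 43% of genes tested in that comparison.

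**Figure D2:**
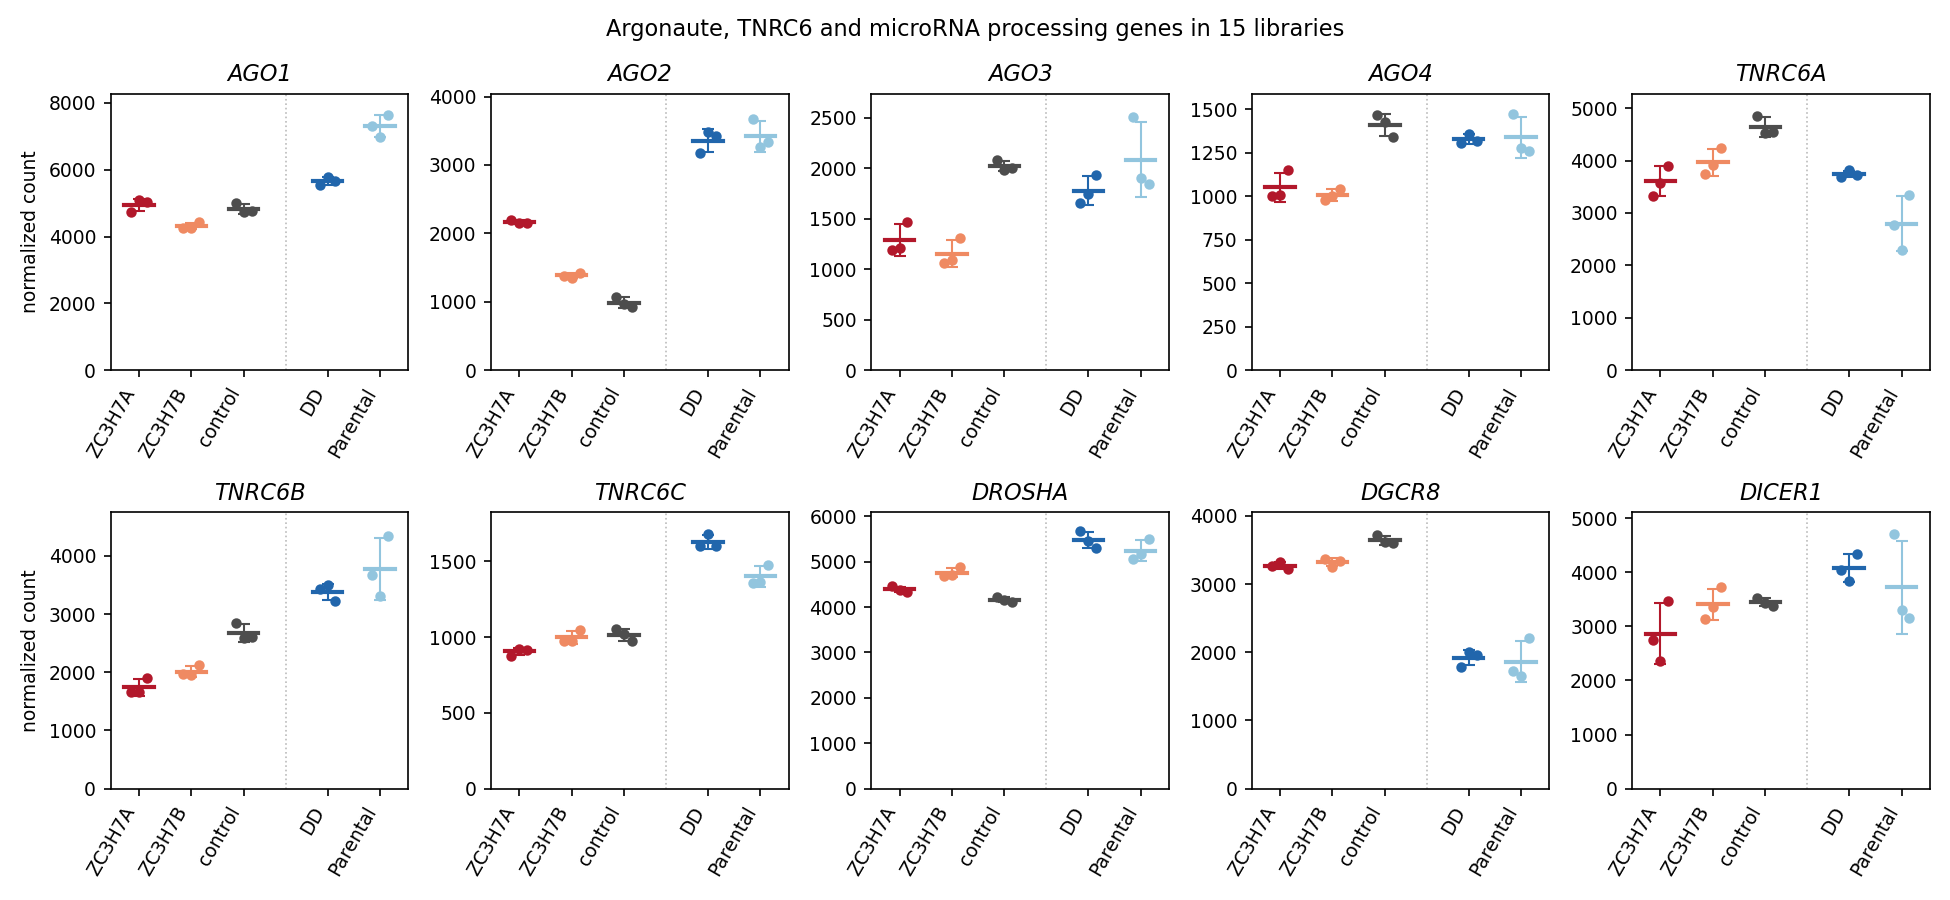
Normalized count of each gene (vertical axes, each from 0) in all 15 libraries, with 1 point per library, a bar at the group mean and whiskers of 1 SD (n = 3). The dotted line parts the overexpression groups from DD and Parental. AGO2 averages 2164, 1385 and 988.4 in ZC3H7A, ZC3H7B and control cells, and DICER1 spreads from 2367 to 3471 within the ZC3H7A libraries.

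These changes shifted the make-up of the Argonaute mRNA pool. Levels were divided by the merged exon length of each gene, and the share of each paralog in the family total was taken per library. AGO2 made up 20.55%, 19.52% and 18.71% of the total in Flag/HA-ZC3H7A cells, 15.06%, 14.69% and 14.69% in Flag/HA-ZC3H7B cells and 9.33%, 8.8% and 8.61% in control cells. AGO3 made up 8.70% ± 0.753 with ZC3H7A, 9.20% ± 0.762 with ZC3H7B and 13.7% ± 0.217 in the control (SD, n = 3 each). AGO4 took 20.7% ± 1.02 with ZC3H7A, 23.4% ± 0.194 with ZC3H7B and 27.7% ± 0.656 in the control, while AGO1 stayed between 49.28% and 53.07% in all 9 libraries. The summed Argonaute level per kilobase was 698.6 ± 25.4 with ZC3H7A and 699.8 ± 24.7 in the control, which overlapped, and 590.9 ± 19.6 with ZC3H7B, below both. No test was run on these shares, and an exact permutation test of 3 libraries against 3 cannot give a two-sided p below 0.1.

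In the depletion experiment the share of AGO1 was 46.0% ± 0.570 in DD cells and 51.4% ± 2.61 in Parental cells (SD, n = 3 each). AGO2 took 23.9% ± 0.480 in DD cells and 21.1% ± 0.451 in Parental cells, and AGO4 took 20.6% ± 0.340 in DD cells and 17.9% ± 0.921 in Parental cells. None of these 3 pairs overlapped. The share of AGO3 did overlap, at 9.48% ± 0.644 in DD cells and 9.58% ± 1.27 in Parental cells. Shares of a total depend on each other, so a fall of AGO1 raises the rest. The levels of AGO2 and AGO4 themselves overlapped between DD and Parental cells (log2 fold changes -0.03 and -0.01), while AGO1 had -0.37. The Argonaute total was 885.5 ± 26.1 per kilobase in DD cells and 1025 ± 52.6 in Parental cells.

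**Figure D3:**
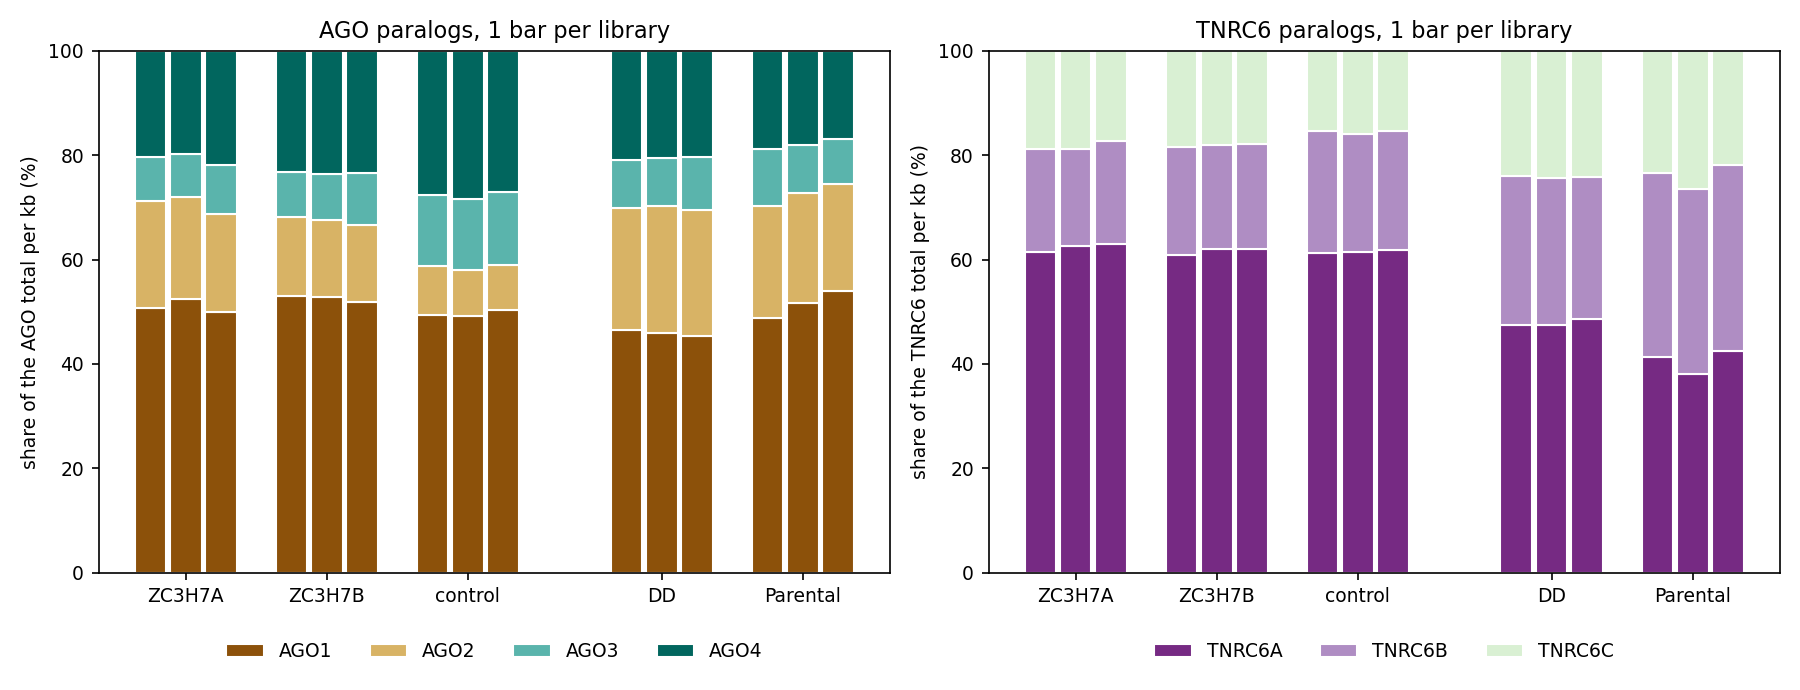
Share of each paralog in the length-scaled Argonaute total (left) and TNRC6 total (right), with 1 stacked bar per library grouped as ZC3H7A, ZC3H7B, control, DD and Parental. The AGO2 segment spans 18.7% to 20.6% in ZC3H7A libraries and 8.61% to 9.33% in control libraries, and the TNRC6B segment spans 27.2% to 28.5% in DD and 35.3% to 35.7% in Parental.

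TNRC6B, one of the scaffold proteins that link Argonautes to deadenylases, had the largest fall of its family with both overexpressed proteins. It had 1657, 1660 and 1899 normalized counts in Flag/HA-ZC3H7A cells, 1964, 1944 and 2128 in Flag/HA-ZC3H7B cells and 2848, 2582 and 2597 in control cells. The 3 groups did not overlap. The log2 fold change was -0.62 with ZC3H7A (SE 0.0633, limma adjusted p = 2.35e-06) and -0.41 with ZC3H7B (limma adjusted p = 9.98e-05). In DD cells it had 3426, 3497 and 3223 normalized counts, against 3666, 3306 and 4346 in Parental cells, which overlapped, and the log2 fold change of -0.15 did not pass (limma adjusted p = 0.251).

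TNRC6A fell in the overexpression groups and rose in DD. It had 3330, 3575 and 3899 normalized counts with ZC3H7A, 3744, 3907 and 4243 with ZC3H7B and 4851, 4528 and 4542 in control cells, so neither overexpression group overlapped the controls. The log2 fold changes were -0.37 with ZC3H7A (limma adjusted p = 0.000168) and -0.23 with ZC3H7B (limma adjusted p = 0.00593). In DD cells it had 3687, 3812 and 3724 normalized counts, close together and all above the 2769, 2285 and 3338 of Parental cells. The rise was 0.44 (SE 0.110, limma adjusted p = 0.0109), and it stayed called when any 1 library was left out.

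TNRC6C had the smallest fold changes of its family in the overexpression groups. It had 878.1, 921.9 and 916.7 normalized counts with ZC3H7A, 972.7, 976.8 and 1044 with ZC3H7B and 1051, 1018 and 972.1 in control cells. The ZC3H7A libraries lay below the controls, at -0.16 (limma adjusted p = 0.0113), but the call was lost without control replicate 1 (-0.14, adjusted p = 0.0543) and with re-estimated size factors (-0.07, adjusted p = 0.229). The ZC3H7B libraries overlapped the controls, and their value of -0.02 turned positive under other scalings. In DD cells TNRC6C had 1600, 1682 and 1599 normalized counts, all above the 1357, 1366 and 1479 of Parental cells. The rise of 0.22 only just passed (limma adjusted p = 0.0419), and the adjusted p was between 0.095 and 0.146 when Parental replicate 1 or 2 or any of the DD replicates was left out.

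Within the TNRC6 total, the share of TNRC6A was 62.3% ± 0.796 with ZC3H7A, 61.7% ± 0.654 with ZC3H7B and 61.5% ± 0.264 in the control (SD, n = 3 each). TNRC6B took 19.4% ± 0.593 with ZC3H7A and 20.2% ± 0.369 with ZC3H7B, below the 22.9% ± 0.330 of the control. TNRC6C took 18.3% ± 0.907 with ZC3H7A and 18.1% ± 0.321 with ZC3H7B, above the 15.6% ± 0.363 of the control. For TNRC6B and TNRC6C neither overexpression group overlapped the control. The total itself was lower, at 447.2 ± 30.1 per kilobase with ZC3H7A and 497.3 ± 27.9 with ZC3H7B, against 584.2 ± 24.5 in the control. In the depletion experiment TNRC6A took 47.9% ± 0.624 and TNRC6B 27.9% ± 0.698 of the total in DD cells, against 40.6% ± 2.28 and 35.5% ± 0.217 in Parental cells, with no overlap for either. The size of these shares depends on the gene length used: with the longest annotated transcript TNRC6A took 55.7% in DD cells and 48.4% in Parental cells.

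DROSHA, the nuclease of the nuclear step, had 4461, 4367 and 4337 normalized counts with ZC3H7A, 4693, 4704 and 4883 with ZC3H7B and 4220, 4154 and 4115 in control cells. All libraries of both overexpression groups lay above the controls. The rise passed with ZC3H7B at 0.19 (SE 0.0362, limma adjusted p = 0.000455). With ZC3H7A the value was 0.076 with an interval between -0.003 and 0.155 (limma adjusted p = 0.0738). It passed without ZC3H7A replicate 3 (0.08, adjusted p = 0.03) and with re-estimated size factors (0.17, adjusted p = 0.00264). In DD cells DROSHA had 5671, 5459 and 5304 normalized counts, overlapping the 5060, 5170 and 5507 of Parental cells, and the log2 difference was 0.06 with an interval between -0.08 and 0.20.

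DGCR8, the partner of DROSHA, was lower in both overexpression groups. It had 3267, 3320 and 3227 normalized counts with ZC3H7A, 3375, 3255 and 3336 with ZC3H7B and 3720, 3612 and 3601 in control cells, and neither overexpression group reached the lowest control. The falls were small, at -0.16 with ZC3H7A (limma adjusted p = 0.00213) and -0.13 with ZC3H7B (limma adjusted p = 0.00655). The call was lost in 2 of 19 other settings with ZC3H7A and in 4 of 19 with ZC3H7B. Both were lost with re-estimated size factors, where the values were -0.06 (adjusted p = 0.201) and -0.05 (adjusted p = 0.323). The complex of DROSHA and DGCR8 is known to cut hairpins in the DGCR8 transcript itself. The rows of the hairpins annotated there, MIR1306 and MIR3618, were at 0 in all 5 groups. They share 85 and 88 exon bases with DGCR8 on the same strand. How reads in shared bases were counted is not given, so these zeros do not show whether the hairpins were made. In DD cells DGCR8 had 1791, 2007 and 1967 normalized counts and in Parental cells 1721, 1652 and 2207, which overlapped (log2 fold change 0.06, limma adjusted p = 0.721).

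DICER1, the cytoplasmic nuclease, varied widely between libraries of a group. It had 2748, 2367 and 3471 normalized counts with ZC3H7A, 3141, 3354 and 3721 with ZC3H7B and 3526, 3422 and 3381 in control cells. ZC3H7A replicate 3 sat among the controls and the other ZC3H7A replicates below them, so the groups overlapped. The fall of -0.28 with ZC3H7A just passed (SE 0.108, limma adjusted p = 0.0302). The call was lost in 8 of 19 other settings. Among them were leaving out any of the control replicates or ZC3H7A replicate 1 or 2 (adjusted p between 0.0563 and 0.137) and TMM scaling (adjusted p = 0.0501). The fall was -0.43 without ZC3H7A replicate 3. With ZC3H7B the value of -0.02 had an interval between -0.26 and 0.22 and changed sign with the scaling. In DD cells DICER1 had 4037, 3840 and 4345 normalized counts, against 4703, 3303 and 3148 in Parental cells, where replicate 1 stood far above the others. The log2 difference of 0.15 did not pass (limma adjusted p = 0.392), and it also rested on single Parental libraries. It was 0.34 without Parental replicate 1 (limma adjusted p = 0.00688), 0.08 without Parental replicate 2 (adjusted p = 0.737) and 0.05 without Parental replicate 3 (adjusted p = 0.768).

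Within a group, the levels per kilobase of merged exon were ordered as follows. In control cells DROSHA was highest at 535.1 ± 6.83, then DGCR8 at 497.9 ± 9.03, TNRC6A at 359.2 ± 14.1 and AGO1 at 347.9 ± 10.7 (SD, n = 3 each). DICER1 (280.1), AGO4 (194.0), TNRC6B (133.8), AGO3 (95.5), TNRC6C (91.2) and AGO2 (62.4) followed. The libraries of TNRC6A and AGO1 overlapped, as did those of AGO3 and TNRC6C. With ZC3H7A, AGO2 moved up from the last place to just under AGO4 (136.7 and 144.6, overlapping), and AGO3 became the lowest member at 60.9, as it also was with ZC3H7B at 54.5. In DD cells DROSHA (704.1) and AGO1 (407.1) led and AGO3 (83.9) was last, and no neighbours in that order overlapped. Parental cells had the same leading pair (674.3 and 526.5) and the same last gene (98.5), but every neighbouring pair between DICER1 and AGO4 in its order overlapped. The order depends on the length used, and 15 of 50 places moved when the longest transcript was taken instead, an alternative chosen after seeing the data. TNRC6A (443.2) then stood above AGO1 (412.5) in DD cells, and AGO2 (148.4) just above AGO4 (147.6) with ZC3H7A, again overlapping. DROSHA stayed first in all 5 groups, but in control cells it then overlapped DGCR8 (785.4 and 775.3). AGO3 stayed last in ZC3H7A, ZC3H7B, DD and Parental cells, and AGO2 stayed last in control cells.

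The members differ in codon use, and the study's question is about codons, so each was read against genes of like composition. A- or T-ending codons make up 27.1% of the coding sequence of AGO2, 33.5% in AGO1, 38.0% in DGCR8, 45.2% in TNRC6C, 49.5% in TNRC6B, 52.7% in DROSHA, 55.3% in AGO4, 57.1% in TNRC6A, 59.9% in DICER1 and 60.5% in AGO3, with a median of 39.9% over 13598 tested coding genes. The median log2 fold change with ZC3H7A declined over bins of this share, at 0.33 for genes with 20% to 25% and -0.98 for genes with 70% to 75%. With ZC3H7B the same bins gave 0.20 and -0.71. In DD against Parental they gave 0.04 and 0.10.

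Set against genes within 2.5 percentage points of its own share, AGO2 stood higher with ZC3H7A: its 1.13 exceeded 94.3% of 1362 such genes, whose median was 0.30. With ZC3H7B its 0.49 exceeded 76.5% of them (median 0.19). TNRC6B stood lower, at -0.62 where the median of such genes was -0.06 with ZC3H7A and 16.3% of them were lower still. TNRC6A was near its like, at -0.37 beside a median of -0.32 with ZC3H7A and -0.23 beside -0.26 with ZC3H7B. AGO3 and AGO4 fell further than the median of their like, which was -0.43 and -0.27 with ZC3H7A and -0.35 and -0.20 with ZC3H7B. Of their like, 30% and 35.4% were lower still with ZC3H7A, and 17.3% and 27.5% with ZC3H7B. DROSHA and DICER1 stood above the median of theirs: with ZC3H7B the medians were -0.11 and -0.33 beside their own 0.19 and -0.02. The medians with ZC3H7A were -0.16 and -0.41 beside their own 0.08 and -0.28. Of those genes 71.7% and 60.8% were lower than DROSHA and DICER1 with ZC3H7A, and 76.4% and 78.3% with ZC3H7B. AGO1 and DGCR8 stood below the median of their like with ZC3H7A, at 0.04 and -0.16 beside medians of 0.23 and 0.17. Even so, 35.2% and 26.8% of their like were lower still with ZC3H7A. In DD all such medians lay between 0.01 and 0.07, and AGO1 was lower than all but 14.5% of its like while TNRC6A was higher than 88.8% of its like.

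**Figure D4:**
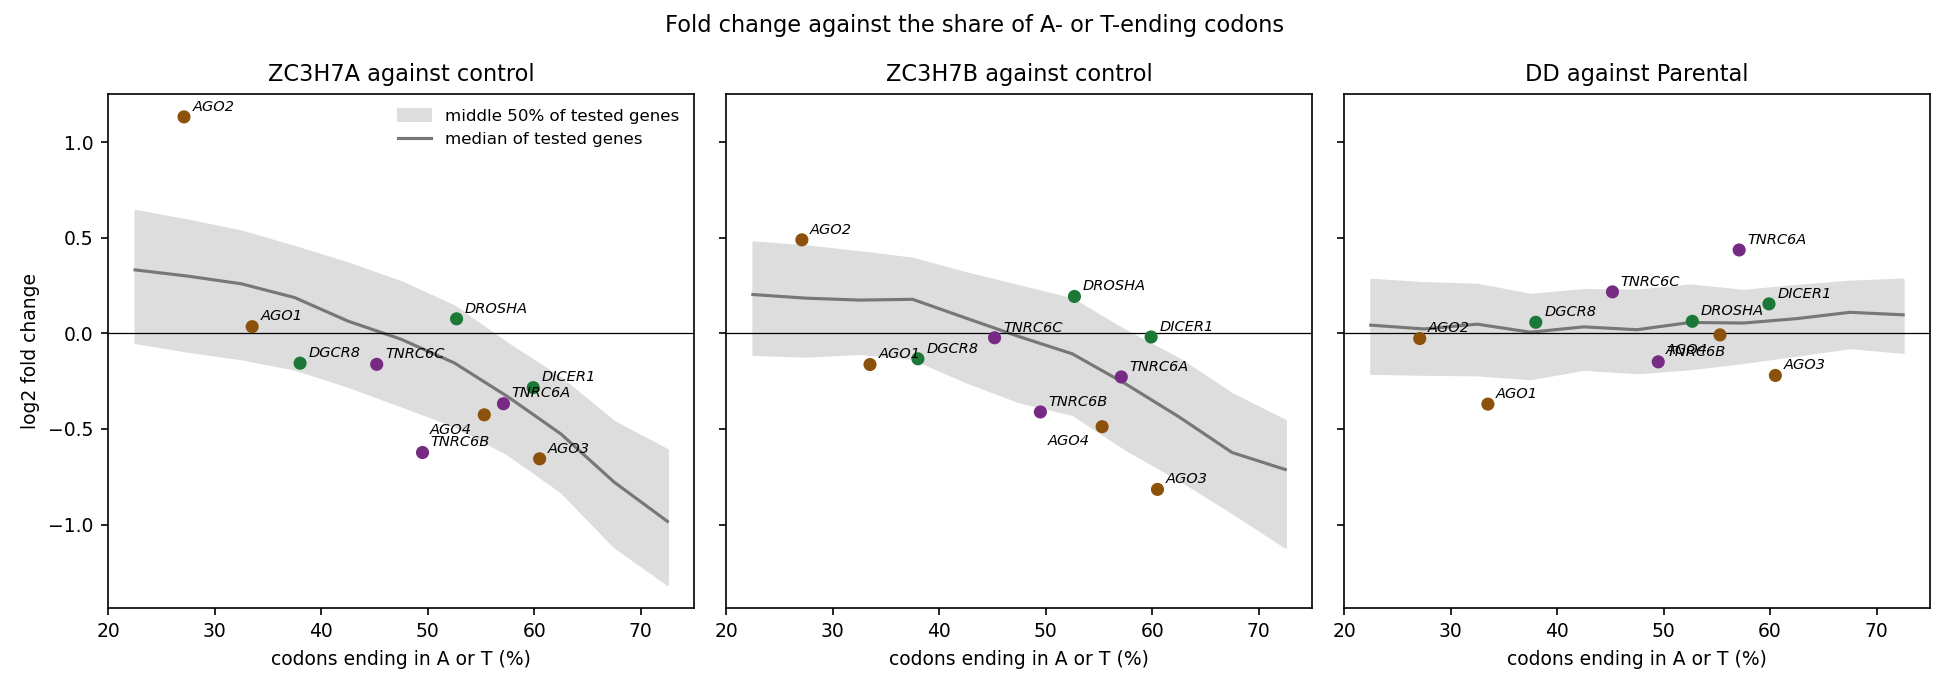
Log2 fold change (vertical axis) against the share of A- or T-ending codons (horizontal axis, %) for the 10 genes (points), over the median and middle 50% of tested coding genes in bins of 5 percentage points (line and band). The line falls from left to right in both overexpression panels and stays near 0 in DD. AGO2 at 27.1% lies above the band with ZC3H7A, and TNRC6B at 49.5% lies below it.

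The same composition also varied between libraries of 1 group. In each library the median deviation of 4417 genes under 30% was subtracted from that of 2250 genes at 60% or more, on the log2 scale. The difference was -0.52, -0.57 and -0.12 in the ZC3H7A libraries, -0.29, -0.15 and -0.04 in the ZC3H7B libraries and 0.58, 0.58 and 0.58 in the controls. Replicate 3, with the value nearest to 0 in both overexpression groups, is also the replicate with the highest AGO3, AGO4, TNRC6A, TNRC6B and DICER1 in both. In ZC3H7B cells replicate 3 was highest for AGO1, AGO2, TNRC6C and DROSHA as well, while DGCR8 was highest in replicate 1. The height of replicate 3 differed in size between members. There AGO3 had 1306 beside 1056 and 1095, AGO4 1041 beside 975.6 and 997.8, and AGO1 4422 beside 4260 and 4266. In ZC3H7A cells AGO2, DROSHA and DGCR8 were lowest in replicate 3. In Parental libraries, over 4243 and 2218 genes, the values were 0.13, -0.06 and -0.16. Parental replicate 1 had the highest AGO2, AGO3, AGO4 and DICER1 of its group. AGO1, TNRC6A, TNRC6B, TNRC6C, DROSHA and DGCR8 were highest in Parental replicate 3, which had the lowest value. The part of this spread in the members' values was not tested.

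AGO2 lies on chromosome 8, and its neighbours moved with it in Flag/HA-ZC3H7A cells. Of the 5 tested genes on each side, 9 rose and 1 fell, with a median log2 fold change of 0.72, where 34.7% of all tested genes rose and 41.2% fell, and 2 of them rose by more than AGO2. KCNK9, a potassium channel gene, had 2.04, TRAPPC9, a trafficking complex subunit, 1.45, and PTK2, the focal adhesion kinase, 0.58. With ZC3H7B the same 10 genes had a median of 0.17, with 5 higher and 3 lower, where 32% of all tested genes rose and 37.6% fell. ZC3H7A and ZC3H7B cells differed at these neighbours by a median of 0.65, beside 0.64 for AGO2 itself, and 9 of 10 were called higher with ZC3H7A, where 23.9% of all tested genes were. In DD cells, where 1 of the 10 nearest tested genes was another one, 7 rose and 1 fell, with a median of 0.68, while AGO2 was at -0.03. Among all tested genes 14.7% rose and 14.8% fell in DD. The part of its neighbourhood in the AGO2 result was not tested.

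The neighbours of members that fell did not fall with them on the median. The 10 genes flanking the AGO1, AGO3 and AGO4 block had a median of 0.09 with ZC3H7A and 0.18 with ZC3H7B. With ZC3H7A and ZC3H7B in that order, the genes flanking TNRC6B had medians of 0.43 and 0.46, those flanking TNRC6A 0.13 and 0.18, those flanking DGCR8 0.21 and 0.04, and those flanking DICER1 0.44 and 0.41. The genes beside TNRC6C were near 0, at 0.03 and -0.02. Those beside DROSHA had medians of -0.08 and 0.00.

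**Figure D5:**
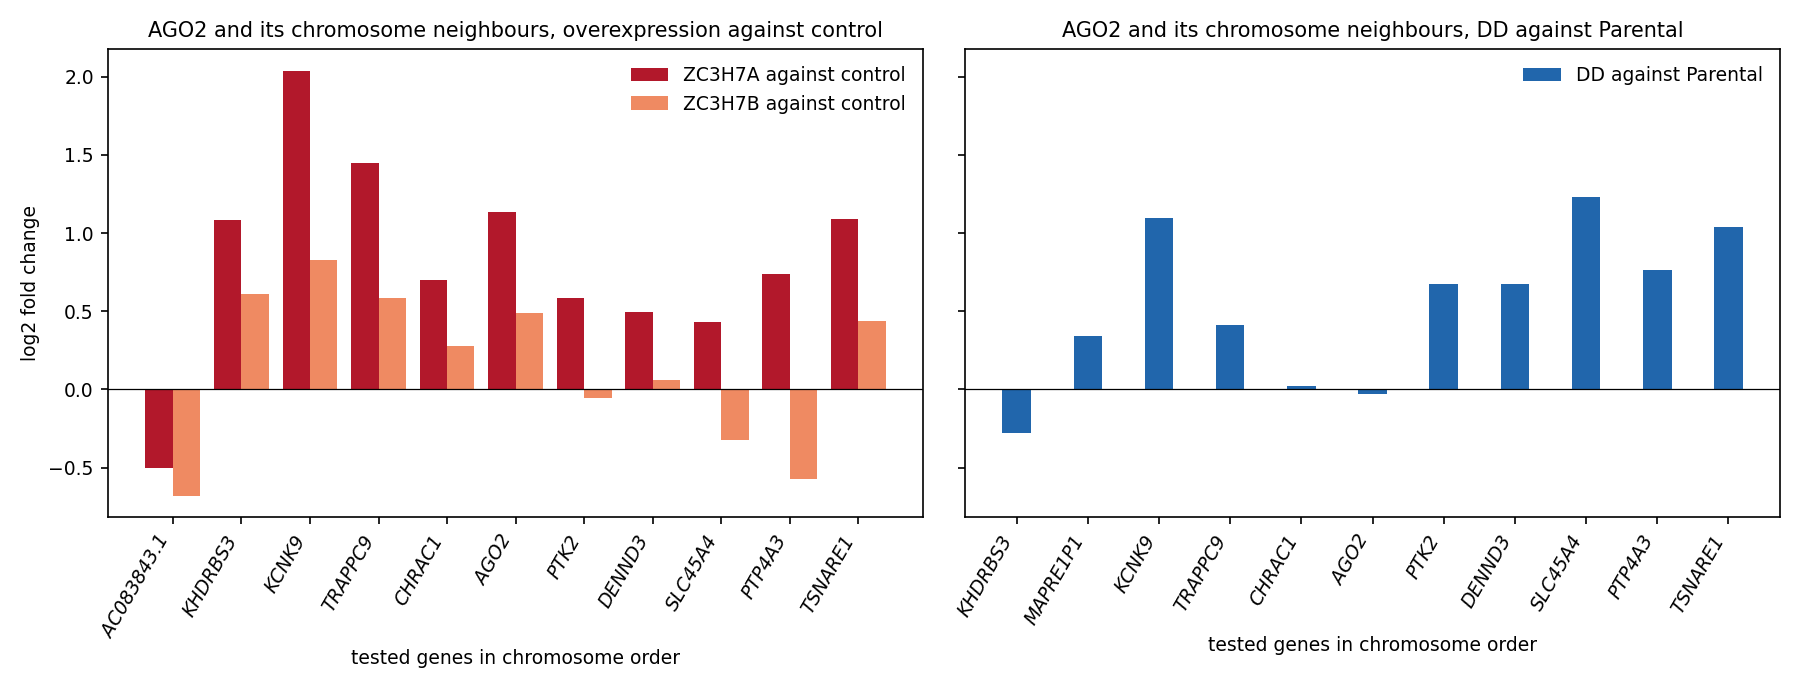
Log2 fold change (vertical axis) of AGO2 and the 5 tested genes on each side of it in chromosome order, for ZC3H7A and ZC3H7B against control (left) and DD against Parental (right). With ZC3H7A the bars run from -0.51 to 2.04 and 9 of the 10 neighbours are above 0. In DD, AGO2 sits at -0.03 between PTK2 at 0.68 and CHRAC1 at 0.02.

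Some annotated genes share exon bases with members, and the kit used for the overexpression libraries does not mark strand. DICER1-AS1, which shares 80 exon bases with DICER1, averaged 138 with ZC3H7A, 158 with ZC3H7B and 230 in control cells, a small number of reads beside DICER1. TNRC6C-AS1 shares 1438 bases with TNRC6C and averaged at most 23 in any group. TRMT2A, a tRNA methyltransferase gene that shares 12 bases with DGCR8, averaged 3100 with ZC3H7A, 3530 with ZC3H7B and 3820 in control cells. On the opposite strand, AC006547.2 shares 526 bases with DGCR8, AL139286.2 shares 396 with AGO1 and AL138787.2 shares 86 with AGO3. AC067931.1 shares 47 bases with AGO2 on the same strand. These genes had no matched row among the deposited counts, so their levels could not be read. The coding sequences of the Argonaute, TNRC6 and DROSHA genes shared no stretch of 50 bases with another gene's transcripts, while DICER1 shared 0.42% of its stretches and DGCR8 1.59%, those with MIR1306.

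The genes with the most similar profiles were found over all 15 libraries among 11763 genes with a mean of at least 100 in both experiments, by the root-mean-square difference of log2 values centred within each experiment. For AGO2 the nearest was TNFRSF10D (0.08), where the profile of AGO2 itself varied by 0.36. PARP8 and HACE1 were nearest to AGO3 (0.07 and 0.08), and SIX4 and ARIH1 to AGO4 (0.04 and 0.05). MAN2C1 and ZBTB4 were nearest to AGO1, and MRPS25 and ANK2 to TNRC6B. ZC3HAV1 was among the nearest to TNRC6A and KIAA0430 among the nearest to TNRC6C. OCRL and TNPO3 were nearest to DROSHA, NOM1 and SUGP2 to DGCR8, and ZNF180 and MTUS1 to DICER1. Among the members, the closest pair was TNRC6C and DGCR8 (0.10), but their own profiles varied by only 0.10 and 0.11. Their closeness therefore need not mean a shared pattern. AGO3 and AGO4 lay 0.15 apart, where their own profiles varied by 0.31 and 0.18. Libraries of a group share their treatment, so these likenesses are descriptions.

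Genes that work beside the members were read from 5 lists. Their counts stand beside 34.7% of all tested genes higher and 41.2% lower with ZC3H7A, 32% higher and 37.6% lower with ZC3H7B, and 14.7% higher and 14.8% lower in DD. Of 13 factors that act on primary transcripts and export, 8 rose and 4 fell with ZC3H7A (median 0.11), 8 rose and 3 fell with ZC3H7B (median 0.24), and 2 rose and 2 fell in DD. XPO5, which carries hairpins out of the nucleus, rose by 0.71 with ZC3H7A (limma adjusted p = 2.35e-08) and 0.62 with ZC3H7B. KHSRP, a protein that binds some hairpins, rose by 0.87 with ZC3H7A and 0.94 with ZC3H7B. The helicase DDX17, an accessory protein of DROSHA, fell by 0.63 with ZC3H7A and 0.53 with ZC3H7B.

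Of 13 tested DICER1 partners and hairpin turnover factors, 9 fell and 2 rose with ZC3H7A (median -0.34), where 41.2% of all tested genes fell and 34.7% rose. With ZC3H7B 8 fell and 2 rose (median -0.33), where 37.6% of all tested genes fell and 32% rose, and in DD 2 rose and 2 fell. TARBP2, the double-stranded RNA-binding partner of DICER1, rose with ZC3H7A (0.42, limma adjusted p = 5.61e-05) and with ZC3H7B (0.36), and fell by 0.42 in DD cells. ZCCHC6 (TUT7) and PAPD4 (TENT2), which add nucleotides to RNA ends, fell by 0.87 and 0.82 with ZC3H7A and by 0.56 and 0.54 with ZC3H7B. LIN28B blocks maturation of let-7 microRNAs and is also on the list of HEK293 markers. It fell by 1.43 with ZC3H7B (limma adjusted p = 3.22e-07), by 0.705 with ZC3H7A and by 0.97 in DD cells.

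The chaperones that help load Argonautes mostly rose in the overexpression groups. Of 9, 6 rose and 1 fell with ZC3H7A (median 0.59), where 34.7% of all tested genes rose, and 7 rose with ZC3H7B (median 0.34), where 32% of all tested genes rose. In DD 2 rose and 1 fell. CDC37, a co-chaperone of HSP90, rose by 0.91 with ZC3H7A (limma adjusted p = 3.83e-09) and 0.84 with ZC3H7B, while FKBP5 fell by 0.21 with ZC3H7A. In DD cells HSP90AA1 rose by 0.46 and PTGES3, the HSP90 co-chaperone p23, fell by 0.44.

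Among 16 partners of Argonaute and TNRC6 in silencing the directions were mixed, with 8 higher and 6 lower with ZC3H7A, 6 higher and 7 lower with ZC3H7B, and 5 higher and 4 lower in DD. IPO8, an importin that binds Argonautes, fell by 0.66 with ZC3H7A and 0.81 with ZC3H7B. LIMD1, a LIM protein that binds Argonautes and TNRC6 proteins, rose by 0.83 with ZC3H7A and 0.43 with ZC3H7B. PAN2, a deadenylase subunit that TNRC6 recruits through PAN3, fell by 0.60 with ZC3H7A and by 1.17 in DD cells (limma adjusted p = 4.66e-06). With ZC3H7B it fell by 0.16. TRIM71 rose in DD cells by 0.69. Of 28 tested host genes of microRNAs, 10 rose and 12 fell with either overexpressed protein, close to the 34.7% higher and 41.2% lower among all tested genes with ZC3H7A. In DD 6 of 29 rose and 7 fell, where 14.7% of all tested genes rose and 14.8% fell. SMC4, whose intron holds a microRNA cluster, fell by 1.79 with ZC3H7A and 1.14 with ZC3H7B. CTDSPL fell by 1.51 in DD cells. The table holds mRNA-level reads, and mature microRNAs were not analysed here.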

How the data were processed

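Gene-level values came from 1 deposited table of size-factor-normalized counts (a signal that is not a whole count). Per the submitters' processing notes the authors used STAR 2.7.10b, HTSeq and DESeq2 with hg19; roles, settings and the gene annotation are not given in the sources used here. Divided by the value of 1 read in its library, 100% of values came out whole (tolerance 0.01), which gave back the reads. On these, edgeR 4.0.16 called 13350 genes with ZC3H7A, 12413 with ZC3H7B and 5479 in DD, and DESeq2 1.42.0 called 12729, 11667 and 4469.

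The main test was limma 3.58.1 in R 4.3.3 on log2(value + 1), with an empirical Bayes trend, on genes reaching a value of 10 in 3 or more of the fitted libraries, with calls at an adjusted p under 0.05. The 9 overexpression libraries shared 1 fit, and the 6 DD and Parental libraries another. Scripts were tested on simulated data. Intervals do not cover errors before counting.

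Names, exon lengths, codons and gene order came from GENCODE 29 on GRCh38, which is not the build of the counts, so no coordinates are given. Of the rows, 34195 matched by symbol, 1303 by another symbol and 20275 not. Proteins were not used here.

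Members and lists were chosen with earlier results of these data known. All 10 members are named. From each list and comparison up to 2 called genes per direction with the lowest adjusted p could be named, with 2 nearest profiles per member and the 5 tested genes on each side. Some of the nearest profiles are not reported here. Of the AGO2 neighbours, those given were chosen after their values were seen. The comparison of libraries by codon composition was added after the data were seen.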

Additional observations from a re-analysis of the deposited data

Results flagged for a closer look

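ZC3H7A and ZC3H7B overexpression differed from each other at 5 of the 10 members by a direct limma test, where 44.3% of 17673 tested genes were called (23.9% higher and 20.4% lower with ZC3H7A). AGO2, the cutting Argonaute, was 0.643 higher on the log2 scale in ZC3H7A cells than in ZC3H7B cells (limma adjusted p = 2.16e-06), and AGO1 was 0.197 higher (limma adjusted p = 0.00226). TNRC6B was lower by -0.213 (limma adjusted p = 0.0165), TNRC6C by -0.139 (limma adjusted p = 0.0412) and DROSHA by -0.117 (limma adjusted p = 0.0198). The 3 ZC3H7A libraries did not overlap the 3 ZC3H7B libraries for any of the 5, as was so for 49.2% of tested genes. AGO2 and AGO1 were called in all 19 alternatives. The TNRC6B difference was not called without ZC3H7A replicate 1 or 2 or ZC3H7B replicate 3, and the DROSHA difference was not called in 4 of 19 alternatives, among them re-estimated size factors (-0.109, limma adjusted p = 0.0534) and leaving out ZC3H7B replicate 3 (-0.099, limma adjusted p = 0.0932). The TNRC6C difference was not called in 11 of 19 alternatives.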

How the results depend on the processing

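The settings tried were other scalings (TMM, and size factors re-estimated within each experiment), pseudocounts of 0.5 and 5, no filter or a filter of 50, the replicate block, edgeR and DESeq2 on recovered reads, a fit of only the groups compared, and leaving out each replicate. Of the members' fold changes under these settings, 171 of 190 kept direction and side of the threshold with ZC3H7A, 175 of 190 with ZC3H7B, 162 of 190 between the overexpressed proteins and 134 of 150 in DD. AGO2, AGO3, AGO4, TNRC6A and TNRC6B stayed called against control in all 19 with either protein, and AGO1 and TNRC6A in all 15 in DD.

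Values that changed sign had not passed the test. With ZC3H7B, TNRC6C was 0.037 with TMM, 0.061 with re-estimated size factors, 0.036 with edgeR and 0.029 with DESeq2, and DICER1 was 0.041, 0.065, 0.043 and 0.036 in the same settings. Leaving out replicates gave TNRC6C between -0.056 and 0.004 and DICER1 between -0.085 and 0.038 there, AGO4 between -0.003 and 0.098 for ZC3H7A over ZC3H7B, and in DD AGO2 between -0.062 and 0.026, AGO4 between -0.051 and 0.064 and DGCR8 between -0.022 and 0.187. Members called between the overexpressed proteins were 5, and 3 with no filter or with only the 2 groups compared, and between 3 and 7 with a replicate left out. Genes called in DD were 5448, and between 3586 and 6820 with a replicate left out, lowest without DD replicate 1. The cause was not tested.

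Same-numbered replicates did not deviate together in every pair (correlations -0.065, 0.035 and -0.007 for ZC3H7A and control, 0.13, 0.006 and 0.3 for ZC3H7A and ZC3H7B, and -0.015, -0.018 and -0.05 for DD and Parental). The replicates numbered 3 of ZC3H7A and ZC3H7B did deviate together, but ZC3H7A replicate 2 correlated best with ZC3H7B replicate 1 (0.17), and the numbers were not taken as pairs. With the replicate block 13482 genes were called with ZC3H7A, 12382 with ZC3H7B, 8301 between them and 4542 in DD, TNRC6C in DD was no longer called (adjusted p = 0.0976) and DICER1 was called lower with ZC3H7A than with ZC3H7B (adjusted p = 0.0198). At this depth a log2 change of AGO2 in DD beyond -0.18 or 0.13 lies outside the 95% interval.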
